A study of Mus musculus with 11 samples.

Results

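The genes described here are 34 genes of cholesterol and fatty acid synthesis, picked by symbol from the 54232 genes of a count table of mouse ovaries. They comprise 18 enzymes of the sterol branch, 10 enzymes of the fatty acid branch, and 6 genes that regulate both branches or carry cholesterol within the cell. All 34 were found in the table and all 34 had enough counts to be tested. RNA of ovaries from WT mice was sequenced at 3 ages, with 4 libraries labelled 2 month, 4 labelled 18 month and 3 labelled 24 month. The series describes its ages as running from reproductively young to post-reproductive animals, so the question put to the genes was how they differ with ovarian age. The names of the libraries give 8 weeks for the 2 month group and 22 months for the group labelled 24 month, and the labelled ages are used throughout. Strain, cycle stage and whether ovaries were pooled are not given in the labels, nor whether the libraries of an age came from separate animals. The p-values therefore measure only the spread between these samples.

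Cholesterol is built from acetyl-CoA through mevalonate, isoprenoid diphosphates, squalene and lanosterol, while fatty acids are built from the same acetyl-CoA through malonyl-CoA and palmitate. Both branches are driven by the SREBP transcription factors, which stay in the endoplasmic reticulum bound to Scap and the Insig proteins when sterols are plentiful and move to the Golgi for cleavage when sterols are low. In the ovary, cholesterol is the substrate of steroid hormones, and the cells of the corpus luteum, which make progesterone, use large amounts of it.

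Library totals ranged from 5231724 to 33407509 counts. Replicates 3 and 4 of the 18 month group, the 2 shallowest libraries, differed by about the sampling noise (chi-square of 1.08 per gene at matched depth, where noise alone gives about 1, against 8.35 for the next closest pair of an age), and were summed and counted as 1 sample, named replicate 3 below. This left 4, 3 and 3 samples at 2, 18 and 24 months. Levels are in CPM, the counts scaled to a common library size, with TMM factors, and values of an age are listed in the order of its replicates. Ages were compared on 20331 genes with the quasi-likelihood test of edgeR, two-sided, and a gene was called higher or lower at a Benjamini-Hochberg adjusted p under 0.05 over all of them. A log2 fold change is always the older age over the younger, with its standard error (SE).

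Between 24 and 2 months the sterol branch fell almost as a whole, and the fatty acid branch fell in part. Of the 18 sterol enzymes, 16 fell and 0 rose, with a median log2 fold change of -1.72. Of the 10 fatty acid enzymes, Scd1, Scd2 and Acly were lower and none was higher, with a median of -0.56, which was -0.93 without 24 month replicate 1 and -0.29 without 24 month replicate 3. Among the 6 regulators and carriers only Insig1 was lower, with a median of -0.45. Over all tested genes, 15.8% were lower and 19.2% higher (35.0% in all), with a median of 0.03. Of the called genes 54.9% were higher, and 73.0% when libraries were scaled to their totals alone, which moved the median of all genes to 0.22 and left the 20 called genes of the set unchanged. In whole tissue, fewer cells of a type and less RNA per cell cannot be told apart. The marker genes of luteal and steroidogenic cells moved with the sterol branch: 5 of 9 were lower at 24 months, their summed level was 33170.1 to 76815 CPM at 2 months, 25041 to 40743 CPM at 18 months and 6589.7 to 25178.5 CPM at 24 months, and none was at 0. Their part in the result was not tested.

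**Figure D1:**
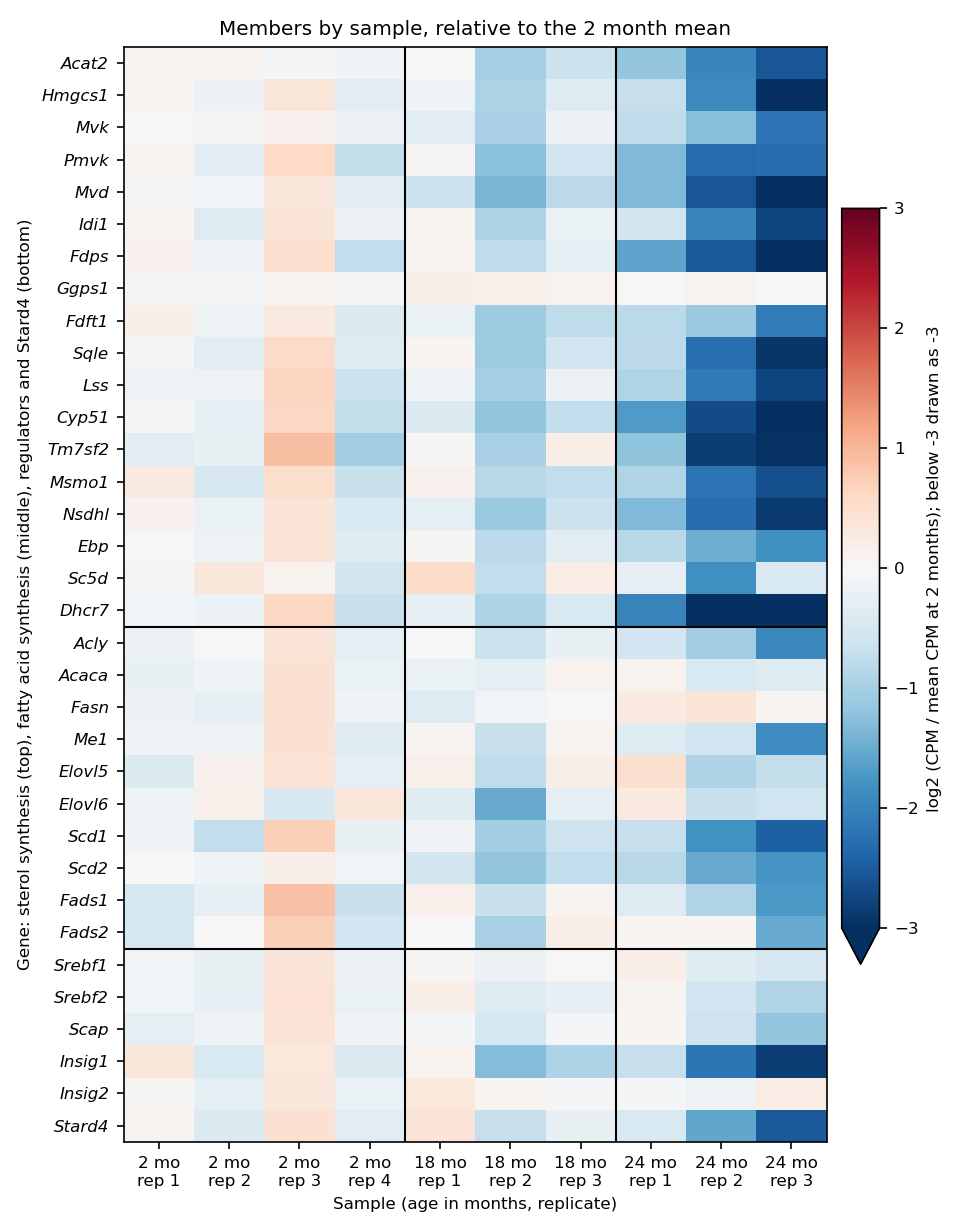
Level of each of the 34 genes (rows) in each of the 10 samples (columns), as the log2 of its CPM over its mean CPM at 2 months; blue is lower, red is higher, and values under -3 take the darkest blue. The 3 samples of 24 months are blue over most of the sterol rows, with Ggps1 near white in every column, and paler over the fatty acid rows.

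The 24 month samples lay below all 2 month samples, with no overlap, for 16 sterol enzymes, 2 fatty acid enzymes and 2 of the regulators and carriers, a pattern held by 20.4% of all tested genes (21.7% lay above). The number of sterol enzymes called depended on single samples. It was 10 without 24 month replicate 2 and also 10 without 24 month replicate 3, which both ended the calls of Hmgcs1, Idi1, Sqle, Lss, Tm7sf2 and Msmo1. It was 12, 14, 13 and 15 without 2 month replicates 1, 2, 3 and 4, and 15 without 18 month replicate 3. With no filter on low counts it was 10. The same 10 enzymes were called in every one of these fits: Acat2, Mvk, Pmvk, Mvd, Fdps, Fdft1, Cyp51, Nsdhl, Ebp and Dhcr7. A fit of the 2 ages alone called 14 sterol enzymes, without Hmgcs1 and Idi1, and 2 fatty acid enzymes, without Scd1. With the replicate number as a block in that fit, although the numbers do not pair these ages, 4 sterol enzymes were called (Acat2, Pmvk, Nsdhl and Dhcr7) and no fatty acid enzyme. Limma-voom called 17 sterol enzymes.

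**Figure D2:**
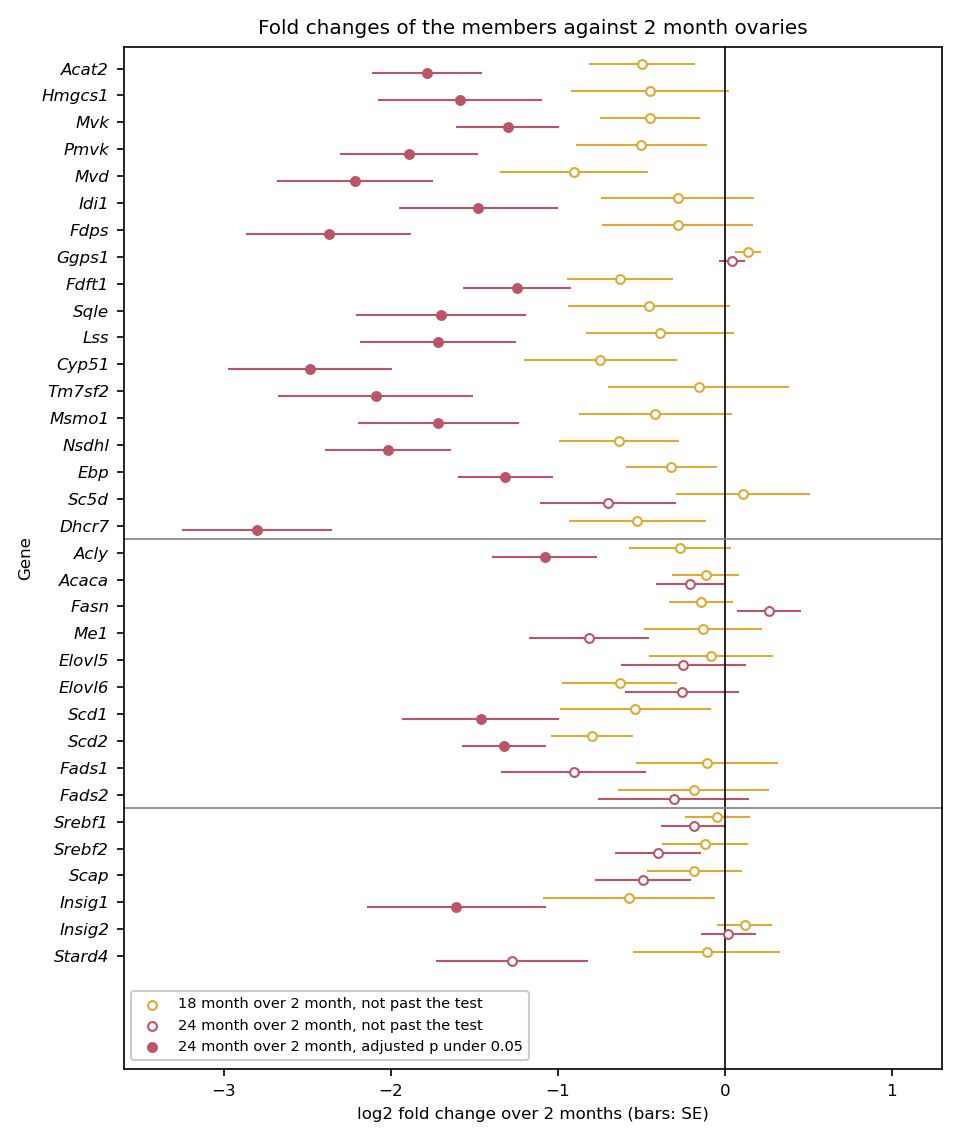
The log2 fold change of each gene against 2 month ovaries, at 18 months (yellow) and 24 months (red), with bars of 1 SE; filled points have an adjusted p under 0.05, and grey lines part the sterol genes (top), the fatty acid genes and the regulators and carriers. Filled points are 16 of 18 in the sterol branch, 3 of 10 in the fatty acid branch and Insig1 below them, all at 24 months.

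The 5 enzymes of the set that act between acetyl-CoA and isopentenyl diphosphate, the building block of isoprenoids, do not cover every step of that line. Of these 5, 5 were lower at 24 months, with a median log2 fold change of -1.78. Acat2, which joins the first acetyl-CoA units, stood at 164, 167, 155 and 145 CPM at 2 months, 157, 78.04 and 100.2 CPM at 18 months and 70.3, 40.6 and 26.7 CPM at 24 months. All 24 month values of Acat2 were below all 2 month values, and its log2 fold change was -1.78 (SE 0.330, adjusted p = 0.00537). Hmgcs1, the HMG-CoA synthase of the cytosol, had 1165, 990.3, 1449.6 and 894 CPM at 2 months, 1029, 585 and 864 CPM at 18 months and 697, 301 and 126 CPM at 24 months. The 24 month samples of Hmgcs1 spread widely yet did not overlap the 2 month samples, and it was 3.00-fold lower, a log2 fold change of -1.59 (SE 0.492, adjusted p = 0.0332). Leaving out 24 month replicate 2 or 3, or 2 month replicate 1, 2 or 3, ended this call, with an adjusted p of up to 0.105 among the 10 fits that leave out 1 sample. Mevalonate kinase, Mvk, measured 60.4, 61.8, 65.8 and 53.4 CPM at 2 months, 48.4, 30.6 and 53.7 CPM at 18 months and 35.5, 24.9 and 13.1 CPM at 24 months. Mvk was the least changed of the 5, at -1.30 (SE 0.309, adjusted p = 0.0127). Pmvk, the next kinase of the line, measured 78.2, 58.3, 110.3 and 44.3 CPM at 2 months, 74.1, 31.03 and 49.04 CPM at 18 months and 29.3, 14.7 and 15.0 CPM at 24 months. At 24 months it fell with -1.89 (SE 0.413, adjusted p = 0.00937). Mvd, the decarboxylase that releases isopentenyl diphosphate, was at 165, 158, 213 and 135 CPM at 2 months, 107, 64.5 and 97.5 CPM at 18 months and 66.7, 28.2 and 13.8 CPM at 24 months. Its 18 month values lay below all 2 month values, without a call, a pattern held by 13.7% of all tested genes. At 24 months Mvd was 4.64-fold lower, at -2.21 (SE 0.466, adjusted p = 0.00816).

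The isoprenoid enzymes did not move together. Idi1, which isomerises isopentenyl diphosphate, had 44.1, 32.5, 55.9 and 37.3 CPM at 2 months, 45.2, 22.4 and 37.2 CPM at 18 months and 28.8, 10.7 and 6.34 CPM at 24 months. Its fall at 24 months, -1.48 (SE 0.476, adjusted p = 0.038), was the weakest call of the branch: it was lost in 7 of the 10 fits that leave out 1 sample, being those without 24 month replicate 2 or 3, any 2 month replicate, or 18 month replicate 3, with an adjusted p of up to 0.122. Fdps, the farnesyl diphosphate synthase that feeds both squalene and protein prenylation, was at 85.4, 69.6, 110.2 and 46.3 CPM at 2 months, 81.3, 45.9 and 64.7 CPM at 18 months and 25.9, 13.6 and 5.64 CPM at 24 months. Fdps was 5.18-fold lower at 24 months, with -2.37 (SE 0.493, adjusted p = 0.00782). Its exons share 26.7% of their length with Gm43738 on the same strand, listed at a mean of 0.0172 CPM, so some of its reads cannot be assigned with certainty. Ggps1, which lengthens farnesyl to geranylgeranyl diphosphate for protein prenylation and stands off the line to cholesterol, was at 43.3, 41.02, 44.6 and 41.0 CPM at 2 months, 47.7, 46.9 and 45.5 CPM at 18 months and 42.99, 45.95 and 42.4 CPM at 24 months. The means of Ggps1 were 42.5 ± 1.79 CPM at 2 months, 46.7 ± 1.08 CPM at 18 months and 43.8 ± 1.90 CPM at 24 months (SD, n = 4, 3 and 3), and its log2 fold change at 24 months was 0.04 (SE 0.0776, adjusted p = 0.685), the smallest SE of all 34 genes. The 18 month samples of Ggps1 all lay above the 2 month samples, a pattern held by 13.7% of all tested genes. It was without a call there, 0.14 (SE 0.0776, adjusted p = 0.268).

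The enzymes from squalene to lanosterol were lower in 3 of 3 cases. Fdft1, the squalene synthase that commits farnesyl diphosphate to sterols, had 344, 269.7, 369 and 223 CPM at 2 months, 262, 145 and 177 CPM at 18 months and 171, 139 and 70.9 CPM at 24 months. It was 2.37-fold lower at 24 months, -1.25 (SE 0.324, adjusted p = 0.0175). Exons of Fdft1 share 774 bases (18.3% of its exon length) with Ctsb on the opposite strand, at a mean of 1180 CPM. The strand setting of the counting is not given, so the counts of Fdft1 are less certain than those of genes without such an overlap. Sqle, the squalene epoxidase, stood at 414, 348, 643 and 332 CPM at 2 months, 454, 207 and 289 CPM at 18 months and 252, 90.99 and 57.7 CPM at 24 months, and fell at 24 months with -1.70 (SE 0.507, adjusted p = 0.0288). Leaving out 24 month replicate 2 or 3 or 2 month replicate 1 or 3 ended it, with an adjusted p of up to 0.0977. Lss, the cyclase that forms lanosterol, measured 320.1, 319, 549.8 and 227 CPM at 2 months, 322, 176 and 312 CPM at 18 months and 189, 81.6 and 52.4 CPM at 24 months. Lss changed like Sqle, at -1.72 (SE 0.466, adjusted p = 0.0205), and its call was lost without 24 month replicate 2 or 3, with an adjusted p of up to 0.0726.

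The enzymes that trim lanosterol to cholesterol held the largest changes, with 6 of 7 lower and a median log2 fold change of -2.02. Cyp51, the lanosterol demethylase, was at 754, 607, 1121 and 449.9 CPM at 2 months, 547, 321 and 441 CPM at 18 months and 224, 115 and 54.0 CPM at 24 months. Each 24 month value of Cyp51 was under each 18 month value as well as each 2 month value, and it was 5.60-fold lower than at 2 months, -2.49 (SE 0.492, adjusted p = 0.00665). Dhcr7 (chr7:143823145-143848410, mm10), which reduces 7-dehydrocholesterol to cholesterol in the last step, had 977, 918, 1576 and 654 CPM at 2 months, 863, 543 and 745 CPM at 18 months and 255, 97.8 and 91.1 CPM at 24 months. Dhcr7 showed the largest fall of the 34 genes, 6.97-fold, at -2.80 (SE 0.448, adjusted p = 0.00332), again with no overlap with either younger age. Msmo1, an oxidase that takes part in the removal of methyl groups from the sterol ring, measured 959, 573, 1150.2 and 505 CPM at 2 months, 869, 445 and 477 CPM at 18 months and 427, 172 and 128 CPM at 24 months. It fell with -1.72 (SE 0.481, adjusted p = 0.0231). This call was lost without 24 month replicate 2 or 3 or 2 month replicate 1, with an adjusted p of up to 0.0808.

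Nsdhl, the dehydrogenase of the same demethylation on chromosome X, was at 304, 243, 360.4 and 200.3 CPM at 2 months, 229, 129 and 177 CPM at 18 months and 110.1, 57.3 and 37.7 CPM at 24 months. It was 4.05-fold lower at 24 months, -2.02 (SE 0.378, adjusted p = 0.00558). Tm7sf2, a sterol reductase, had 107, 115, 252 and 65.8 CPM at 2 months, 139, 69.1 and 155 CPM at 18 months and 58.7, 19.1 and 17.2 CPM at 24 months. Its spread among 2 month samples, relative to its mean, was the widest of the 34 genes, and its fall of -2.09 (SE 0.584, adjusted p = 0.0227) was lost without 24 month replicate 2 or 3, with an adjusted p of up to 0.0781. Tm7sf2 shares 12.1% of its exon length with Vps51 on the same strand, so some of its reads cannot be assigned with certainty. Ebp, the sterol isomerase, measured 105, 94.6, 136 and 81.6 CPM at 2 months, 107, 60.6 and 82.7 CPM at 18 months and 58.7, 37.98 and 29.05 CPM at 24 months, and fell 2.49-fold at 24 months, -1.32 (SE 0.284, adjusted p = 0.00895). Sc5d, a desaturase of the last steps, was not called by edgeR or DESeq2, but was called lower by limma-voom. It stood at 454, 588, 506 and 318 CPM at 2 months, 680.5, 281 and 545 CPM at 18 months and 395, 129 and 337 CPM at 24 months, so 24 month replicates 1 and 3 lay within the range of the 2 month samples, and its log2 fold change was -0.70 (SE 0.408, adjusted p = 0.204).

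**Figure D3:**
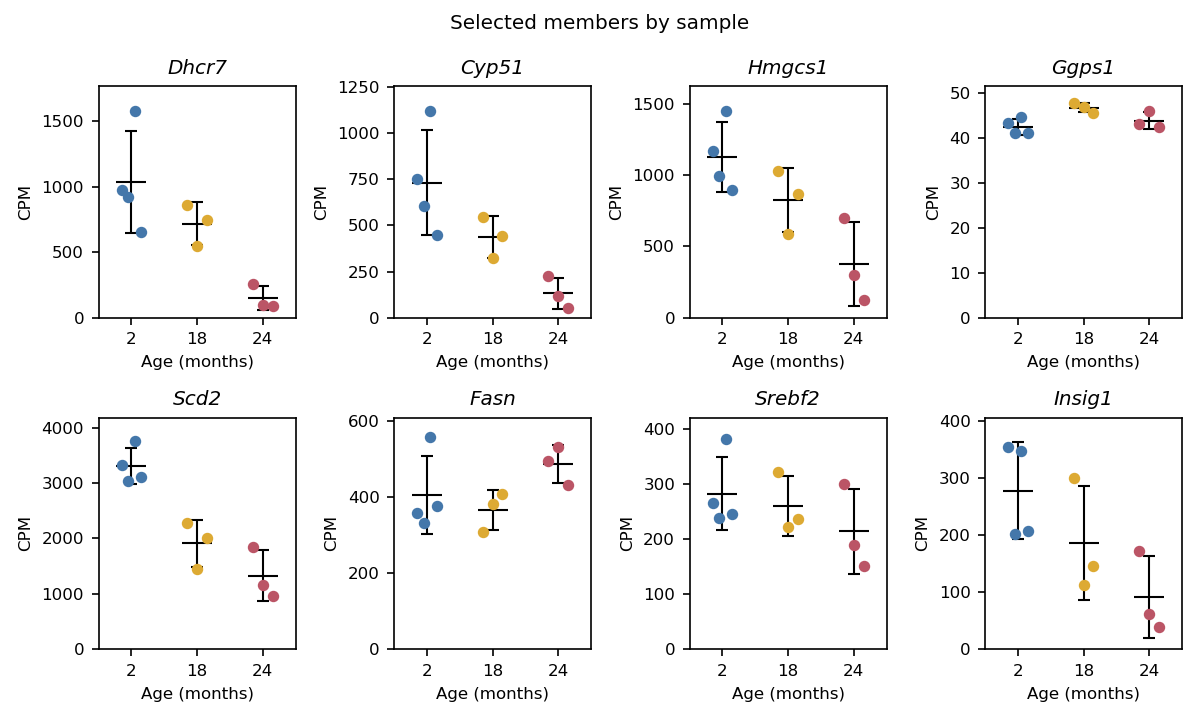
CPM of 8 genes in each sample (points) by age in months, with the mean (long bar) and SD (error bar); the axes start at 0 and differ between panels. Dhcr7, Cyp51 and Hmgcs1 step down to 24 months with no overlap with 2 months, and Ggps1 stays between 41.0 and 47.7 CPM. Scd2 does not overlap the 2 month samples at either older age, with a call at 24 months only. Fasn and Srebf2 overlap between 24 and 2 months.

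Promoter sequences were read from RefSeq (GRCm38.p6, 250 bases before to 50 after the start) for 27 of the 34 genes, in 36 windows. Entries were not used for Fdps, Fdft1, Sqle, Scd1, Scd2, Fads1 and Stard4. Each window was searched on both strands for the sterol regulatory element TCACNCCAC, its strict form TCACCCCAC, the E-box CACGTG, the CCAAT box bound by NF-Y and the GC box GGGCGG. The sterol element was found in Hmgcs1 alone among the 27 genes, in its strict form, against 1.44% of 27025 genes for the relaxed form and 0.614% for the strict form. Its match in Hmgcs1 begins 137 bases before the start, on the coding strand, and lies 34 bases from the nearest CCAAT box. CCAAT occurred in 14 of 15 sterol genes, 4 of 7 fatty acid genes and 4 of 5 regulators, against 41.1% of all genes. GGGCGG occurred in 13 of 15, 3 of 7 and 5 of 5 of them, against 38.2% of all genes, and CACGTG in Sc5d, Dhcr7, Elovl5, Scap and Insig1, against 8.09%. These shares are descriptions of letters in short windows and say nothing of binding. The Hmgcs1 window (chr13:119690101-119690400, plus strand) is shown because it holds the element. The windows of Nsdhl (chrX:72918271-72918570, plus strand), which fell, and Ggps1 (chr13:14063439-14063738, minus strand), which was not called, are set beside it because both hold several CCAAT boxes (4 and 3), a choice made after their values were seen. Capitals mark CCAAT or its reverse complement ATTGG and, in Hmgcs1, the sterol element.
Hmgcs1: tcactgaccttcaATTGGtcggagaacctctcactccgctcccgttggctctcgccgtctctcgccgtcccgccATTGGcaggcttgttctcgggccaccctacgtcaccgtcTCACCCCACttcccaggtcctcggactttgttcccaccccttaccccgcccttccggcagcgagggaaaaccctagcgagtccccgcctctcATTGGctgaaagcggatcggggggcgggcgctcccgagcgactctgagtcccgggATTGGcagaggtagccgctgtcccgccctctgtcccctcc
Nsdhl: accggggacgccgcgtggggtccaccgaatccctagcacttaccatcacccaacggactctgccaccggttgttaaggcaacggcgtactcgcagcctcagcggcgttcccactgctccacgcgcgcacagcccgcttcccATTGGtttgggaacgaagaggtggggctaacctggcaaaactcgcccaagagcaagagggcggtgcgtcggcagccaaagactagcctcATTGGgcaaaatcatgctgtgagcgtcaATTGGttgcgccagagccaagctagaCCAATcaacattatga
Ggps1: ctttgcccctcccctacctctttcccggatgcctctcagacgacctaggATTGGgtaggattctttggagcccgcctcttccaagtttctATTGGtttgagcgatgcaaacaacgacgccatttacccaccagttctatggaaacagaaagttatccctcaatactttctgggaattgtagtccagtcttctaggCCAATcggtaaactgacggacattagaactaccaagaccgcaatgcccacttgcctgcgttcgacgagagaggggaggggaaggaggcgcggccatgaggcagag
Hmgcs1 fell 3.00-fold, Nsdhl fell 4.05-fold and Ggps1 was not called. Because these windows were picked for the motifs they hold, they cannot show whether CCAAT boxes go with a fall.

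In the fatty acid branch the 24 month changes differed from enzyme to enzyme. Acly, which makes cytosolic acetyl-CoA from citrate and so feeds both branches, was at 1071, 1184, 1582 and 975 CPM at 2 months, 1205, 768 and 1023 CPM at 18 months and 812, 580.5 and 317 CPM at 24 months. All 24 month values of Acly were below all 2 month values, and it was 2.11-fold lower, -1.08 (SE 0.314, adjusted p = 0.0261), a call lost without 24 month replicate 2 or 3 or 2 month replicate 3, with an adjusted p of up to 0.0695. Acaca, the acetyl-CoA carboxylase that makes malonyl-CoA, stood at 71.7, 77.4, 115 and 72.7 CPM at 2 months, 73.6, 69.1 and 90.5 CPM at 18 months and 91.2, 61.8 and 65.4 CPM at 24 months. Its ages overlapped, with -0.21 (SE 0.202, adjusted p = 0.44). Fasn, the synthase that assembles palmitate, had 359, 332, 558 and 376 CPM at 2 months, 309, 383 and 409.6 CPM at 18 months and 496, 534 and 433 CPM at 24 months. Fasn was the only enzyme of the branch with a positive log2 fold change at 24 months, 0.26 (SE 0.191, adjusted p = 0.3). It was called higher by limma-voom and, in edgeR, without 2 month replicate 3, which gave a log2 fold change of 0.43. Me1, the malic enzyme that supplies NADPH for synthesis, measured 1363, 1365, 2009 and 1124 CPM at 2 months, 1549, 924 and 1539 CPM at 18 months and 1129, 975 and 401 CPM at 24 months. Its log2 fold change was -0.81 (SE 0.360, adjusted p = 0.105), and 24 month replicate 3 alone lay under 924 CPM, the lowest value of the younger ages.

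The desaturases Scd1 and Scd2 place the first unsaturated bond in stearate and palmitate. They lie near each other on chromosome 19 (chr19:44394451-44407709 and chr19:44293676-44306864, mm10) and are close paralogs, so reads could be split between them in the counting. Scd2 had 3329, 3036, 3762 and 3113 CPM at 2 months, 2274, 1452 and 1997 CPM at 18 months and 1846, 1163 and 964 CPM at 24 months. Both older ages lay wholly below the 2 month samples, patterns held by 13.7% of all tested genes at 18 months and 20.4% at 24 months. At 24 months Scd2 was 2.50-fold lower, -1.32 (SE 0.252, adjusted p = 0.00574), a call kept in all 10 fits that leave out 1 sample. Scd1 was at 307, 201, 545 and 284 CPM at 2 months, 312, 162 and 217 CPM at 18 months and 208, 94.7 and 60.9 CPM at 24 months. Its 24 month replicate 1 overlapped the 2 month samples, and its fall of -1.46 (SE 0.468, adjusted p = 0.0367) was lost without 24 month replicate 2 or 3 or 2 month replicate 1, 3 or 4, with an adjusted p of up to 0.116. Per kilobase of exon, the Scd2 level was 9.70, 13.5, 6.18 and 9.81 times the Scd1 level in the 2 month samples, 6.52, 8.02 and 8.23 times in the 18 month samples and 7.95, 10.99 and 14.2 times in the 24 month samples, which overlap.

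The polyunsaturated arm showed no call. Fads1 and Fads2, neighbouring desaturases of polyunsaturated fatty acids on chromosome 19, had log2 fold changes of -0.91 (SE 0.436, adjusted p = 0.13) and -0.31 (SE 0.451, adjusted p = 0.62) at 24 months. Fads1 was at 399, 487, 1057 and 362 CPM at 2 months, 636, 361 and 607 CPM at 18 months and 439, 309 and 176 CPM at 24 months, with 2 month replicate 3 more than 2 times each other 2 month value. Elovl5, an elongase of polyunsaturated chains, ranged from 447 to 1176 CPM at 24 months against 641 to 1128 CPM at 2 months. Elovl6, an elongase of palmitate, measured 226, 276, 179 and 315 CPM at 2 months, 193, 86.7 and 204 CPM at 18 months and 303, 158 and 164 CPM at 24 months. Their log2 fold changes were -0.25 (SE 0.374, adjusted p = 0.627) for Elovl5 and -0.26 (SE 0.342, adjusted p = 0.577) for Elovl6. The values of Elovl5, Elovl6 and Fads2 in 24 month ovaries thus overlapped those in 2 month ovaries.

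Of the 6 genes that control both branches or carry cholesterol, edgeR called 1 lower at 24 against 2 months, Insig1. That is near the share of 15.8% called lower among all tested genes. Srebf2, whose product SREBP2 mainly drives sterol genes, had 266, 238, 381 and 244 CPM at 2 months, 322, 221 and 237 CPM at 18 months and 300.4, 189.8 and 152 CPM at 24 months. Its log2 fold change at 24 months was -0.40 (SE 0.260, adjusted p = 0.249), and 24 month replicate 1 lay among the 2 month samples. Srebf1, whose product mainly drives fatty acid genes, was at 91.7, 82.8, 127 and 86.5 CPM at 2 months, 99.8, 86.3 and 95.9 CPM at 18 months and 112, 75.3 and 68.8 CPM at 24 months. Its log2 fold change was -0.19 (SE 0.195, adjusted p = 0.476), and 0.0019 when libraries were scaled to their totals alone. Scap, the escort of the SREBPs, measured 337, 368, 539 and 374 CPM at 2 months, 394, 283 and 392 CPM at 18 months and 424, 263 and 178 CPM at 24 months, with -0.49 (SE 0.286, adjusted p = 0.203). Srebf2 and Scap were called lower without 24 month replicate 1, in which all 3 of these genes had their highest level at 24 months.

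Insig1 and Insig2 hold the SREBP-Scap complex in the endoplasmic reticulum, and Insig1 is itself a target of the SREBPs. Insig1 had 354, 202, 347 and 207 CPM at 2 months, 300.1, 113 and 146 CPM at 18 months and 172, 61.9 and 38.96 CPM at 24 months. It was 3.05-fold lower at 24 months with no overlap, -1.61 (SE 0.536, adjusted p = 0.0424), yet the call was lost in 7 of 10 fits, those without 24 month replicate 2 or 3, any 2 month replicate or 18 month replicate 3, with an adjusted p of up to 0.132. Insig2 was at 49.6, 39.6, 61.3 and 42.04 CPM at 2 months, 59.6, 50.2 and 46.99 CPM at 18 months and 46.99, 43.2 and 56.1 CPM at 24 months, with 0.02 (SE 0.165, adjusted p = 0.934). The ratio of Insig1 to Insig2, per kilobase of exon, was 8.02, 5.73, 6.35 and 5.52 at 2 months, 5.66, 2.52 and 3.48 at 18 months and 4.12, 1.61 and 0.779 at 24 months. All 24 month ratios were thus below all 2 month ratios, and in 24 month replicate 3 Insig2 stood above Insig1. Stard4, a carrier of cholesterol between membranes, measured 161, 114, 210.3 and 123 CPM at 2 months, 199, 94.4 and 129.96 CPM at 18 months and 110.2, 51.7 and 26.8 CPM at 24 months. Its 24 month samples all lay below the 2 month samples, with -1.28 (SE 0.455, adjusted p = 0.0537), so edgeR did not call it. DESeq2 and limma-voom both called it lower, as did edgeR without 24 month replicate 1.

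At 18 months no gene of the set was called against 2 months by edgeR, where 5.51% of all tested genes were lower and 6.04% higher (11.6% in all). Of the genes called, 52.3% were higher, and 66.7% when libraries were scaled to their totals alone. At an unadjusted p under 0.05 there were 0 sterol enzymes, 1 fatty acid enzyme and 0 regulators, against 6084 of all tested genes. The sterol enzymes had a median log2 fold change of -0.45, with 16 of 18 below 0, the fatty acid enzymes of -0.17 and the regulators of -0.11, beside 0.01 for all tested genes. In the sterol branch the smallest adjusted p belonged to Mvd, -0.90 (SE 0.442, adjusted p = 0.202), Fdft1, -0.63 (SE 0.318, adjusted p = 0.215), and Nsdhl, -0.63 (SE 0.359, adjusted p = 0.267). In the fatty acid branch it belonged to Scd2, -0.80 (SE 0.248, adjusted p = 0.0651), Elovl6, -0.63 (SE 0.345, adjusted p = 0.253), and Scd1, -0.54 (SE 0.453, adjusted p = 0.464). DESeq2, limma-voom and the fit with all 11 libraries apart each called Scd2 and no other gene of the set. A fit of the 2 ages alone called Scd2 and Mvd. Samples of 18 months lay wholly below those of 2 months for Mvd and Scd2 and wholly above for Ggps1, patterns held by 13.7% of all tested genes in each direction. Among the regulators, Insig1 had -0.58 (SE 0.517, adjusted p = 0.492), Insig2 0.12 (SE 0.165, adjusted p = 0.671) and Scap -0.18 (SE 0.284, adjusted p = 0.706), and Srebf2 and Srebf1 had log2 fold changes of -0.12 and -0.05.

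Between 24 and 18 months edgeR called none of the 34 genes and 1 gene of all tested (0.00% lower and 0.00492% higher). With the replicate number as a block, which takes same-numbered samples of these ages as pairs, it called 0 of the 34 and 0 genes of all. At an unadjusted p under 0.05 there were 15 sterol enzymes, 1 fatty acid enzyme and 1 regulator or carrier, against 2108 of all 20331 tested genes. The median log2 fold change was -1.29 in the sterol branch, -0.35 in the fatty acid branch and -0.29 among the regulators, beside 0.03 for all tested genes. Dhcr7, at -2.28 (SE 0.452, adjusted p = 0.387), and Fdps, at -2.09 (SE 0.506, adjusted p = 0.387), had the smallest adjusted p, followed by Acat2 at -1.29 (SE 0.340, adjusted p = 0.421). DESeq2 called 5 sterol enzymes lower, Acat2, Fdps, Cyp51, Nsdhl and Dhcr7, and limma-voom none. The 24 month samples lay wholly below the 18 month samples for 9 sterol enzymes and no fatty acid enzyme, a pattern held by 5.36% of all tested genes. Within the 3 pairs of samples with the same number, 18 of 18 sterol enzymes were lower at 24 months in every pair, as were Acly, Scd1, Scd2 and Fads1 of the fatty acid branch and Srebf2, Insig1 and Stard4, against 17.6% of all tested genes. This count was added after the values were seen, and scaling to library totals gave Ggps1 a log2 fold change of 0.0036. In the fatty acid branch the smallest adjusted p belonged to Acly, -0.81 (SE 0.328, adjusted p = 0.467), Scd2, -0.53 (SE 0.260, adjusted p = 0.514), and Fasn, 0.41 (SE 0.205, adjusted p = 0.52). All 3 Fasn values at 24 months were above those at 18 months, a direction without overlap held by 6.73% of all tested genes. Stard4, -1.17 (SE 0.476, adjusted p = 0.467), Insig1, -1.03 (SE 0.552, adjusted p = 0.54), and Srebf2, -0.28 (SE 0.276, adjusted p = 0.719), led the regulators and carriers. Since 24 and 18 months are each set against the same 2 month samples above, the 3 comparisons are not independent.

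Set side by side, the branches stood further apart at 24 months than at the younger ages. The 18 sterol enzymes summed to 6544, 5653, 8868 and 4454 CPM at 2 months, 6065, 3281 and 4713 CPM at 18 months and 3138, 1419.6 and 1125 CPM at 24 months. The 10 fatty acid enzymes summed to 7978, 8176, 11424 and 7527 CPM, 7794, 4864 and 7380.3 CPM and 6809, 4634 and 3203 CPM at the same ages. All 24 month sterol sums lay below all sums of either younger age, while the fatty acid sum of 24 month replicate 1 lay within the 18 month range. The ratio of the sterol sum to the fatty acid sum was 0.820, 0.691, 0.776 and 0.592 at 2 months, 0.778, 0.675 and 0.639 at 18 months and 0.461, 0.306 and 0.351 at 24 months. With every gene weighted alike, the mean log2 CPM of the sterol enzymes minus that of the fatty acid enzymes averaged -1.35 ± 0.197 at 2 months, -1.47 ± 0.160 at 18 months and -2.49 ± 0.254 at 24 months (SD, n = 4, 3 and 3). The ranges of 2 and 18 months overlapped, and the 24 month range of -2.64 to -2.19 lay below both. No p is given for these sums, because the genes were chosen with their results known.

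**Figure D4:**
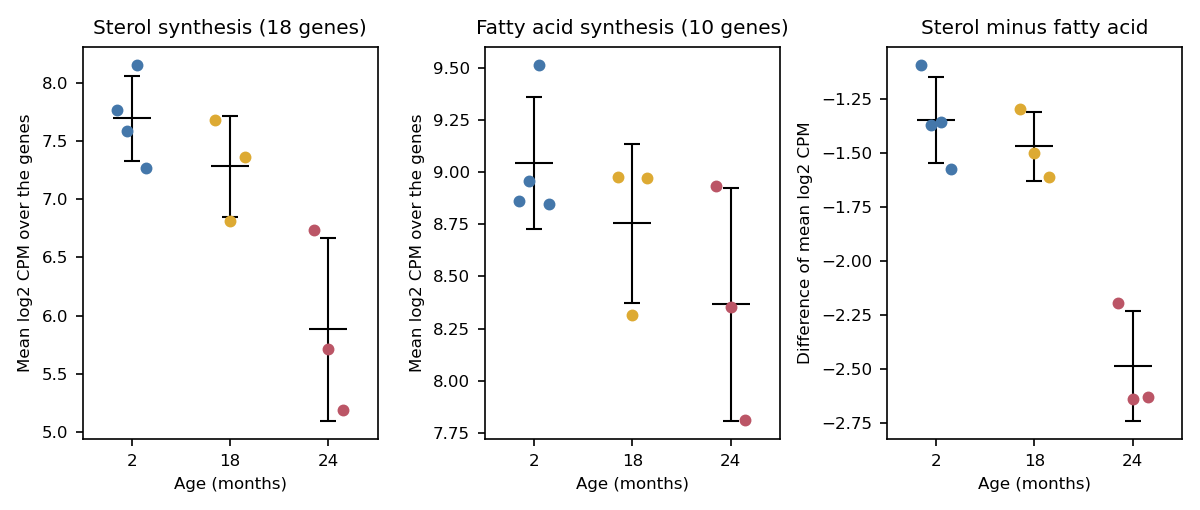
Mean log2 CPM over the sterol enzymes (left), over the fatty acid enzymes (middle) and their difference (right), by age in months, with 1 point a sample and bars for the mean and SD; the axes do not start at 0. The difference lies between -1.61 and -1.09 at 2 and 18 months and between -2.64 and -2.19 at 24 months.

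Within an age the sterol enzymes ranked the samples nearly alike. Of the 18, 16 were highest in 2 month replicate 3 among the 2 month samples and 17 were lowest in 2 month replicate 4. Among the 18 month samples 16 were highest in replicate 1 and 17 lowest in replicate 2, and among the 24 month samples 17 were highest in replicate 1 and 16 lowest in replicate 3. The fatty acid enzymes followed the same samples in part: 9 of 10 were highest in 2 month replicate 3, 9 were lowest in 18 month replicate 2, 8 were highest in 24 month replicate 1 and 7 lowest in 24 month replicate 3. The genes of the set are therefore not independent of one another, and their number adds little to the number of samples.

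Levels can be compared between genes only per kilobase of exon. On that scale, as CPM per kilobase, the highest levels at 2 months were those of Scd2 at 606 ± 59.7, Me1 at 381 ± 98.7, Hmgcs1 at 245 ± 53.1, Elovl5 at 241 ± 63.0 and Acly at 228 ± 50.6 (SD, n = 4), of which the last 3 did not differ beyond their spread. Dhcr7 and Cyp51 followed at 177 ± 67.0 and 166 ± 65.0, and Ggps1 and Acaca stood last, Acaca at 4.93 ± 1.21. At 18 months the first 3 places went to the fatty acid genes Scd2, Me1 and Elovl5. The same 3 genes came first at 24 months, Scd2 at 242 ± 84.7, Me1 at 217 ± 99.7 and Elovl5 at 203 ± 114 (SD, n = 3), whose ranges overlap. In that order Dhcr7 stood at place 17 at 24 months against place 6, Cyp51 stood at place 15 at 24 months against place 7, and Fasn at place 9 against place 24 at 2 months.

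Of 26 further genes of the pathway, all tested, 6 were lower and 2 higher at 24 months against 2 months, with a median log2 fold change of -0.31. Over all tested genes, 15.8% were lower and 19.2% higher. The lower genes were Acss2, Slc25a1, Hacd3, Tecr, Hsd17b12 and Elovl1. Acss2, which makes acetyl-CoA from acetate, was 4.61-fold lower, -2.21 (SE 0.476, adjusted p = 0.00899). Slc25a1, the citrate carrier that supplies Acly, had -0.92 (SE 0.217, adjusted p = 0.0121). The 2 higher genes, against a share of 19.2% higher among all tested genes, were Abcg1, a cholesterol exporter, with 0.86 (SE 0.194, adjusted p = 0.0104), and Mylip, a ubiquitin ligase, with 1.02 (SE 0.253, adjusted p = 0.0152). At 18 months against 2 months both were higher as well, at 0.84 (SE 0.194, adjusted p = 0.0267) and 0.98 (SE 0.254, adjusted p = 0.038), and Scd3 was lower, -1.96 (SE 0.391, adjusted p = 0.0183). The shares of all tested genes in that comparison were 5.51% lower and 6.04% higher. Between 24 and 18 months none of the 26 was called. Abcg1 and Mylip thus stood higher at both older ages. Abca1, another cholesterol exporter, was not called, at 0.38 (SE 0.382, adjusted p = 0.462) at 24 months against 2 months.

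Among marker genes of ovarian cells, the luteal and steroidogenic list moved with the sterol branch. Star, which brings cholesterol into mitochondria, was lower at 24 months, -3.59 (SE 0.496, adjusted p = 0.00221), as were Ptgfr, Akr1c18, Parm1 and Scarb1, while Cyp11a1, which cleaves the cholesterol side chain, had -1.22 (SE 0.552, adjusted p = 0.111). The list shares Hsd3b1 and Lhcgr with the theca list. The sterol sum was 11.5, 17.04, 11.5 and 12.6 percent of the luteal sum at 2 months, 14.9, 12.1 and 18.8 percent at 18 months and 12.5, 10.5 and 17.1 percent at 24 months. Relative to the sum of the luteal markers the sterol sum thus overlapped across ages, at means of 13.2 ± 2.64, 15.3 ± 3.39 and 13.4 ± 3.35 percent (SD, n = 4, 3 and 3). The fatty acid sum was 13.97 to 24.6 percent of the luteal sum at 2 months, 17.9 to 29.5 percent at 18 months and 27.0 to 48.6 percent at 24 months, the last range above all 2 month values. Relative to Cyp11a1 alone the sterol sum was 0.501, 0.713, 0.486 and 0.485 at 2 months, 0.592, 0.568 and 0.727 at 18 months and 0.332, 0.311 and 0.722 at 24 months, so 2 of the 3 oldest samples were below all others and 1 was not. Star alone stood at 16120, 10096, 20211 and 6627 CPM at 2 months, 8820, 6010 and 5375 CPM at 18 months and 1475, 1254 and 570 CPM at 24 months. In CPM, not scaled to gene length, the sterol sum was below Star in every 2 and 18 month sample and above it in every 24 month sample. Only the shift with age can be read from this, since levels of unlike genes compare only per kilobase. How the sterol sum compared across ages therefore depended on the marker it was set against. These ratios and comparisons were chosen after the values were seen.

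**Figure D5:**
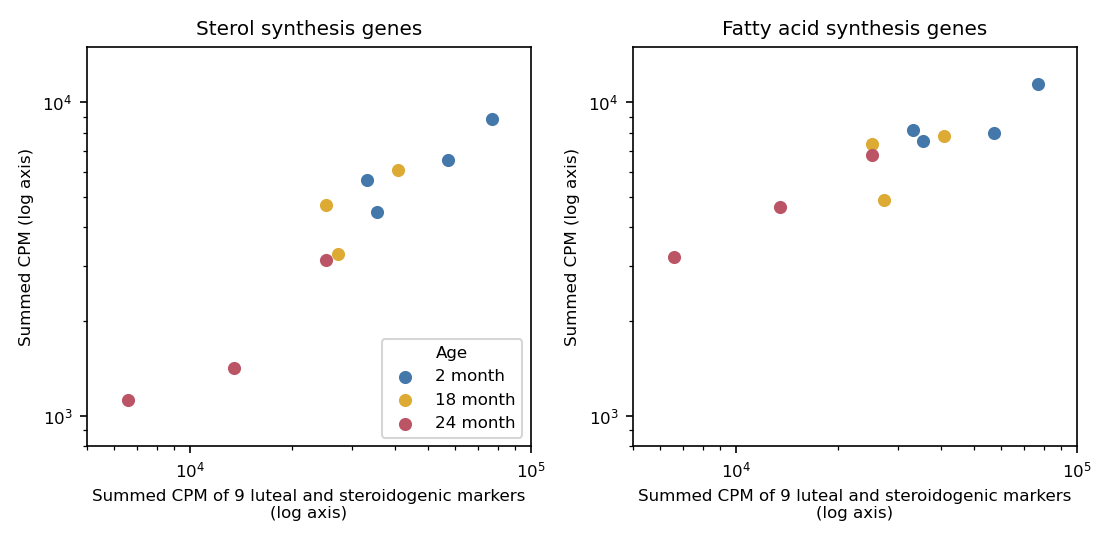
Summed CPM of the sterol enzymes (left) and of the fatty acid enzymes (right) against the summed CPM of 9 luteal and steroidogenic markers, 1 point a sample coloured by age, both axes logarithmic. The sterol sum stays between 10.5 and 18.8 percent of the marker sum at every age, while the fatty acid sum reaches 27.0 to 48.6 percent of it at 24 months.

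Markers of other cell types also differed between 24 and 2 month ovaries, where 15.8% of all tested genes were lower and 19.2% higher. Oocyte markers were lower in 9 of 9 cases, their sum being 258 to 608 CPM at 2 months, 32.8 to 70.9 CPM at 18 months and 5.69 to 44.6 CPM at 24 months. At 18 months 9 of 9 were lower already, against 5.51% of all tested genes. Granulosa markers were lower in 4 of 8 cases (Fshr, Amh, Nr5a2 and Esr2) and theca markers in 1 of 5 (Fdx1), the latter near the share of all tested genes. Macrophage markers were higher in 7 of 7 cases, with sums of 194 to 240 CPM, 400 to 534 CPM and 471 to 521 CPM at 2, 18 and 24 months. Surface epithelium markers were higher in 5 of 6 cases and mast cell markers in 4 of 5. Oviduct markers were higher in 5 of 5 cases, with sums of 1.91 to 5.69 CPM, 5.99 to 66.0 CPM and 5.34 to 692 CPM, the highest in 24 month replicate 3, where 16 of the 18 sterol enzymes were lowest for their age. Adipocyte markers, which bear on fatty acid synthesis, summed to 59.5 to 119.6 CPM, 64.9 to 83.4 CPM and 31.9 to 102 CPM. Of these 9 markers 5 were tested, with Adipoq higher and Lipe lower. Adipoq was near the floor, at 0 to 0.0812 CPM at 2 months and 1.75, 0.341 and 0.116 CPM at 24 months. Lep was at 0 in all 2 month samples and at most 0.187 CPM at 24 months. No erythroid marker was called (3 tested). The part of any of these cell types in the results was not tested.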

How the data were processed

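Ovarian RNA of WT mice was extracted with Trizol, cleaned on columns with DNase, and made into libraries with an mRNA kit of Illumina that keeps strand, per the labels' protocols. The authors deposited raw counts per gene, with a column for each library. Per the submitters' processing notes, the tools were FastQC, cutadapt, STAR and HTSeq, with build mm10. Their versions, the gene annotation and the use of strand in counting were not given in the sources used here, so overlapping and antisense genes cannot be told apart with certainty. Gene coordinates are those of the table. Exon lengths came from GENCODE M21, with coordinates identical to the table for all 34 genes but Tm7sf2, Scd1, Scd2, Fads1 and Fads2, whose values per kilobase are less certain.

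Groups follow the age in the sample titles. Counts, with 18 month replicates 3 and 4 summed, were filtered by filterByExpr (20331 of 54232 genes), scaled by TMM and fitted with all 3 ages in 1 model (edgeR 4.0.16, R 4.3.3, robust quasi-likelihood; 7 residual degrees of freedom, common biological coefficient of variation 0.32). The SE is the log2 fold change over the root of its F. Alternatives were DESeq2 1.42.0, limma-voom 3.58.1 with sample weights, other scalings, other count filters, fits of the 2 ages alone, a replicate block, 11 libraries apart, and each sample left out. The code was tested on simulated data. Totals of 5231724 to 33407509 counts bound the precision, the 34 genes having 194 counts or more in every sample. Every gene of the set is named; values in each sample are given for genes past the threshold, both SREBP genes and, in each branch and comparison, the 3 genes with the smallest adjusted p. The genes, lists and tests were chosen with earlier results of these data known. Same-numbered samples of 24 and 18 months deviated together (r of 0.398, 0.283 and 0.148 across genes), so the numbers were taken as pairs there. Samples of these ages with unlike numbers had r of -0.339 to 0.144, so the weakest pair was close to the highest of them. The pairing was thus read from these same data and is uncertain. Same-numbered samples of 24 or 18 and 2 months did not deviate together (r of -0.109 to 0.0741). A planned comparison of protein sequences was not made. Some genes of the planned lists are not reported here and were left out of the list counts and sums.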

Additional observations from a re-analysis of the deposited data

Results flagged for a closer look

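Of 37 sets of 4 values at 2 months that were screened for a sample standing apart, 2 were marked by Dixon's criterion, a gap to the nearest sample of over 0.829 of the range. Chance marks about 1 in 20 such sets. Acaca stood at 115 CPM in 2 month replicate 3, with a gap of 0.867 of the range, and the summed level of the 10 fatty acid enzymes stood at 11424 CPM in the same sample, with a gap of 0.833. Without this sample Fasn was called higher at 24 months, and Acly and Scd1 were no longer called lower.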

How the results depend on the processing

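With each of 10 samples left out in turn, edgeR called 4283 to 7467 genes at 24 against 2 months, with 10 to 16 sterol enzymes, 1 to 3 fatty acid enzymes and 0 to 4 regulators and carriers, with median log2 fold changes of -2.38 to -1.38 in the sterol and -0.93 to -0.29 in the fatty acid branch. At 18 against 2 months it called 375 to 2748 genes and 0 to 1 fatty acid enzymes (Scd2, without 24 month replicate 1 or 3), with a fatty acid median of -0.30 to 0.037. At 24 against 18 months it called 0 to 2 genes, with a sterol median of -1.95 (without 24 month replicate 1) to -0.96 and a fatty acid median of -0.77 to -0.17 (without 24 month replicates 1 and 3).

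At 24 against 2 months, where the main counts were 7120 genes, 16 sterol enzymes, 3 fatty acid enzymes and 1 regulator, the 2 ages alone gave 14 sterol and 2 fatty acid enzymes, and no count filter gave 10 sterol enzymes and 0 regulators. DESeq2, limma-voom and the 11 libraries apart each gave 2 regulators. The replicate block gave 1 fatty acid enzyme and 2 regulators. The block in a fit of the 2 ages alone, added after the data were seen, gave 1952 genes, 4 sterol enzymes (Acat2, Pmvk, Nsdhl and Dhcr7), 0 fatty acid enzymes and 0 regulators. At 18 against 2 months, where the main count was 2349 genes and none of the set, the block gave 1034 genes and the block with the 2 ages alone 541. DESeq2 gave 4052 genes and the 11 libraries apart 4000. Limma-voom, DESeq2 and the 11 libraries apart gave 1 fatty acid enzyme, and the 2 ages alone 1 fatty acid and 1 sterol enzyme. The fatty acid median was 0.0019 in limma-voom. At 24 against 18 months, where the main count was 1 gene, library totals, the block, the 2 ages alone and both together gave 0 genes, and DESeq2 gave 194 genes with 5 sterol enzymes. The cause of these changes was not tested.

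The sign of some genes without a call changed. At 24 against 2 months the log2 fold change of Srebf1 was 0.0019 with library totals, that of Fads2 0.099 in limma-voom, and that of Insig2 -0.0016 with no filter, -0.030 with the replicate block and -0.016 with the block and 2 ages. At 18 against 2 months, library totals gave 0.019 for Elovl5, 0.017 for Fads1 and 0.057 for Srebf1. The block gave -0.20 for Sc5d, and -0.090 with 2 ages. Limma-voom gave 0.21 for Tm7sf2, 0.019 for Acaca, 0.0019 for Fasn, 0.0020 for Me1, 0.029 for Elovl5, 0.22 for Fads1, 0.054 for Fads2 and 0.059 for Srebf1. At 24 against 18 months library totals gave 0.0036 for Ggps1 and 0.0058 for Insig2, and limma-voom 0.045 for Fads2.

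Leaving out single samples also changed signs. At 24 against 2 months Fads2 ranged over -0.53 to 0.079 and Insig2 over -0.074 to 0.14. At 18 against 2 months the ranges were -0.16 to 0.39 for Sc5d, -0.37 to 0.32 for Tm7sf2, -0.24 to 0.075 for Me1, -0.23 to 0.16 for Elovl5, -0.26 to 0.35 for Fads1, -0.41 to 0.14 for Fads2, -0.11 to 0.095 for Srebf1, -0.42 to 0.11 for Stard4, -0.24 to 0.056 for Acaca, -0.23 to 0.030 for Fasn and -0.28 to 0.043 for Srebf2. At 24 against 18 months they were -0.20 to 0.00026 for Insig2, -0.28 to 0.027 for Acaca, -0.39 to 0.25 for Fads2, -0.72 to 0.081 for Elovl5 and -0.37 to 0.0013 for Srebf1. No other member changed sign, and no called gene did.

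With 3 or 4 samples an age and 7 residual degrees of freedom, moderate changes in single genes are hard to tell from the spread. The labels give no batch, so a batch in which the ages differed cannot be told apart from age. The block changed no other call at 24 against 18 months. Between 2 months and the older ages the same numbers did not pair the samples.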
